A study of Mus musculus with 24 samples.

Results

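The TNF receptor superfamily genes described here are Tnfrsf9, Tnfrsf4, Tnfrsf18, Cd27, Tnfrsf1a and Tnfrsf1b, together with Ltb, 7 of the 55487 genes listed for each of the 24 libraries. They are the genes whose symbols equal these names in both experiments, and they were chosen on measured values of these same libraries. Their levels are therefore given as a description, without a test. Of the 7, 6 encode receptors. Ltb encodes lymphotoxin beta, a ligand of the TNF superfamily and not a receptor, so the name of the group covers 1 gene that it does not describe.

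Receptors of the TNF superfamily are membrane proteins that bind trimeric ligands, and most of them recruit TRAF adaptors that activate NF-kB transcription factors. 4-1BB (Tnfrsf9), OX40 (Tnfrsf4), GITR (Tnfrsf18) and CD27 are known as costimulatory receptors of lymphocytes, whereas the TNF receptors TNFR1 (Tnfrsf1a) and TNFR2 (Tnfrsf1b) bind TNF and lymphotoxin alpha. Lymphotoxin beta, made by lymphocytes and innate lymphoid cells, joins lymphotoxin alpha on the cell surface and signals through the lymphotoxin beta receptor in lymphoid organ formation.

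The cells were Ebf1-deficient lymphoid progenitors from mouse fetal liver, kept as cell lines, that carried Cas9 from the Rosa26 locus (Cas9-LP). The retroviral sgRNA vectors carried an hNGFR marker, with pools of sgRNAs against Cbfb, Ctcf or Med12 (sgCbfb, sgCTCF, sgMed12) or with guides against luciferase (sgControl), and hNGFR+CD45+ cells were sorted 5 days after transduction. All groups grew on OP9 stromal cells treated with mitomycin C, with SCF, Flt3L and IL-7. LPs stayed on OP9 cells without a Notch ligand, and Phase 1 cells had 2 days on OP9-DLL4 cells, which present the Notch ligand DLL4.

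Experiment 1 compared 4 groups, LP sgControl, LP sgCbfb, Phase 1 sgControl and Phase 1 sgCbfb, and asked how the RUNX partner Cbfb acts before and after Notch stimulation. Experiment 2 compared LPs with sgControl, sgCbfb, sgCTCF or sgMed12, and asked how loss of these regulators compares. Each of the 8 groups had 3 libraries, described as independent biological replicates. All came from cultured Cas9-LP cells, and which line or lines gave each library is not stated. A pool of guides can leave edited and unedited cells mixed, so the spread and the P values below describe cultures of these cells. Levels were read by QuantSeq 3′ FWD, which sequences the 3′ end of each mRNA, and are given in CPM, the reads of a gene scaled to the same library total in every library. Experiment 1 had 1363263 to 1743319 reads on genes per library, so that 3 reads, the limit that a count of 0 allows, equal 1.72 to 2.20 CPM. Experiment 2 had 3354483 to 4326782 reads, and there 3 reads equal 0.693 to 0.894 CPM. Such limits and the read intervals below take each read as an independent count and leave out the variation between cultures. Removal of PCR copies is not described, so they may be too narrow even for counting error.

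Differences are given on the scale of log2(CPM + 1) with the standard error of limma, and folds are ratios of group means. A gene was called when its limma P value, adjusted over all genes tested in that experiment, was under 0.05, its means differed over 2-fold and either mean was over 10 CPM. The test took in each gene that reached 1 CPM in 3 or more libraries, which kept 13239 genes in experiment 1 and 13177 in experiment 2. All 7 of the genes passed this filter in both experiments. Where any of the 7 is said to pass the thresholds, this describes its values and is no test, since they were chosen on these libraries. Where libraries of a pair of groups are said not to overlap, such separation was common, found in a given direction for 8.35% to 12.1% of all genes tested in the comparisons of experiment 1 and 9.33% to 16.0% in those of experiment 2 with sgControl.

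The targeted genes check the labels. Cbfb was 92.7, 91.02 and 75.8 CPM in the LP sgControl libraries and 45.8, 39.01 and 35.7 CPM in the LP sgCbfb libraries. It fell in LPs of experiment 1 by limma (log2 difference -1.09 ± 0.22, adjusted P = 0.0055) with 3 of 3 sgCbfb libraries below every control. In experiment 2 it fell from 114 ± 8.37 to 48.4 ± 6.93 CPM (SD, n = 3; log2 difference -1.23 ± 0.17, limma adjusted P = 4.3e-06), again in 3 of 3 libraries. In Phase 1 cells the groups overlapped, at 66.5 ± 19.2 CPM with sgControl and 53.9 ± 9.69 CPM with sgCbfb (log2 difference -0.27 ± 0.22, limma adjusted P = 0.59), so Cbfb does not separate the labels there. Without Phase 1 sgControl replicate 3 that difference was -0.53 (adjusted P = 0.16). Ctcf was lower in 3 of 3 sgCTCF libraries (306 ± 29.96 against 391 ± 30.8 CPM; log2 difference -0.36 ± 0.10, limma adjusted P = 0.021), under the fold threshold. Med12 was 9.61, 3.196 and 8.23 CPM with sgMed12 and 6.59, 4.43 and 4.38 CPM with sgControl, and these groups overlapped (log2 difference 0.30 ± 0.35, limma adjusted P = 0.66, or 0.71 and 0.15 without sgMed12 replicate 2). Tags of the 3′ end do not read the edited site, so the level of Med12, and that of Cbfb in Phase 1 cells, does not check the label.

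Markers of the cells were read in the same libraries. Mef2c, a progenitor factor, had the highest mean of the lymphoid progenitor list, at 815.8 CPM over the libraries of experiment 1 and 848.4 CPM over those of experiment 2. Of the B cell markers, Cd79a was at 0 in every library of both experiments. Ebf1 tags were nevertheless present, at a mean of 212 CPM in experiment 1 and 232 CPM in experiment 2, although the cells are described as Ebf1-deficient, and a 3′ tag need not lie in the disrupted part of the gene. Among stromal genes that RNA of OP9 cells could bring, Dcn and Col3a1 were at 0 in every library, and the most abundant was Pdgfrb at a mean of 7.25 and 5.90 CPM.

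A pair of libraries stood apart from their replicates. Phase 1 sgControl replicate 3 differed by over 1 log2 unit from the mean of the 2 other libraries of its group at 1005 of 8043 genes, whereas the other libraries of experiment 1 did so at 156 to 525 genes. The library sgMed12 replicate 2 did so at 197 of 8199 genes, against 3 to 116 in the other libraries of experiment 2. Its mitochondrial share of reads, 8.44%, was near the 6.76% to 8.15% of the 9 libraries with other guides, whereas the other sgMed12 libraries were at 13.66% and 11.18%. The higher share was thus seen in 2 of the 3 sgMed12 libraries only, and RNA quality and the guide cannot be told apart as its source. For some of the log2 differences that moved without a library that stood apart, the value without that library is also given.

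The genes lie on 3 chromosomes (GRCm38). Tnfrsf9 (ENSMUSG00000028965, chr4:150914562-150946102, plus strand), Tnfrsf4 (ENSMUSG00000029075, chr4:156013843-156016612, plus), Tnfrsf18 (ENSMUSG00000041954, chr4:156026164-156028895, plus) and Tnfrsf1b (ENSMUSG00000028599, chr4:145213463-145246870, minus) share chromosome 4, where Tnfrsf4 and Tnfrsf18 are 9551 bases apart. On chromosome 6, Cd27 (ENSMUSG00000030336, chr6:125232622-125237010, minus) lies 112 kb from Tnfrsf1a (ENSMUSG00000030341, chr6:125349362-125362484, plus). Ltb (ENSMUSG00000024399, chr17:35194439-35196320, plus) lies 3060 bases from Tnf and 6844 bases from Lta, which are on the opposite strand. Exons of Tnfrsf18 share 414 bases with the antisense gene Gm16008, listed at a group mean of at most 0.471 CPM, and whether the reads were counted by strand is not stated.

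The promoters are shown because sgCbfb targets the partner subunit of RUNX factors and because these receptors signal to NF-kB. The RefSeq promoter table (GRCm38.p6, 250 bases before to 50 after each start) held all 7 genes in 8 entries. It was searched on both strands for a RUNX core (TGTGGT), the inner letters of an NF-kB site (GGANNTTCC) and an E-box (CACCTG), which 16.8%, 4.3% and 20.2% of all 32851 promoters hold. Capitals mark the matches in the 5 entries that have one, on the gene's own strand, 5′ to 3′, and a match on the other strand appears as its reverse complement. Tnfrsf9 has entry 1 at chr4:150919905-150920204 (plus strand) and entry 2 at chr4:150927749-150928048 (plus). Tnfrsf18 is at chr4:156026072-156026371 (plus), Tnfrsf1b at chr4:145246821-145247120 (minus) and Ltb at chr17:35194257-35194556 (plus).
Tnfrsf9 entry 1: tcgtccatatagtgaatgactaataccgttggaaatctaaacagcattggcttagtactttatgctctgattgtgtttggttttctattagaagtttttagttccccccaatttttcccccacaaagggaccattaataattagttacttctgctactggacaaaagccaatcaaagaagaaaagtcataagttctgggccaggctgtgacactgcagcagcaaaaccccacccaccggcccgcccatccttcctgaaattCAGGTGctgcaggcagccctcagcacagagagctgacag
Tnfrsf9 entry 2: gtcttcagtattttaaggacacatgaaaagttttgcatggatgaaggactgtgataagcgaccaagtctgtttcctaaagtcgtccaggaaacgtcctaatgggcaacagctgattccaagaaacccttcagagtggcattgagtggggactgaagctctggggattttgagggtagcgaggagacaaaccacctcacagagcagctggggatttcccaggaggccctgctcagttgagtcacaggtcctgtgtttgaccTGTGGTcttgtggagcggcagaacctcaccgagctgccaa
Tnfrsf18: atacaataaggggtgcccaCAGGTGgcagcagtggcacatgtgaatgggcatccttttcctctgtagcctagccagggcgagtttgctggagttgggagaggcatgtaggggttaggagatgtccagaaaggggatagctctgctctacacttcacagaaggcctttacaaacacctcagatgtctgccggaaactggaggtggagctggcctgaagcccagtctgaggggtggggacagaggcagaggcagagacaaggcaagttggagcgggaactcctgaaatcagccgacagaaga
Tnfrsf1b: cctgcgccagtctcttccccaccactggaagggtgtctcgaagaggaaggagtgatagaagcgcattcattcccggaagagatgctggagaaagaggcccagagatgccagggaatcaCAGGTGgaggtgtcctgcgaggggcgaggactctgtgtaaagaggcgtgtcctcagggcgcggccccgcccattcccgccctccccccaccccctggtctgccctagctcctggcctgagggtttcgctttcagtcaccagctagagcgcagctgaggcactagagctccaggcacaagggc
Ltb: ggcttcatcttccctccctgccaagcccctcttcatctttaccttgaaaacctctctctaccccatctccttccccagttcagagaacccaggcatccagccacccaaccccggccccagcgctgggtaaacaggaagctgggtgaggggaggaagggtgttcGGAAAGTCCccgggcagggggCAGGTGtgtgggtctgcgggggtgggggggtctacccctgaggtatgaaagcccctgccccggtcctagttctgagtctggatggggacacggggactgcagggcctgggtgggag
The RUNX core matched in 1 entry, Tnfrsf9 entry 2, after its start, and the E-box of Tnfrsf9 entry 1 also follows the start. The E-boxes of Tnfrsf18, Tnfrsf1b and Ltb begin 231, 132 and 66 bases before the start, and the NF-kB letters of Ltb 87 bases before it. The entries of Tnfrsf4, Cd27 and Tnfrsf1a hold no match to the 3 motifs as searched. Only these letters were sought, so an entry without a match can hold other forms of a site. This applies to both Tnfrsf9 entries for NF-kB. A match describes the letters of the window and is not evidence of binding.

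**Figure D1:**
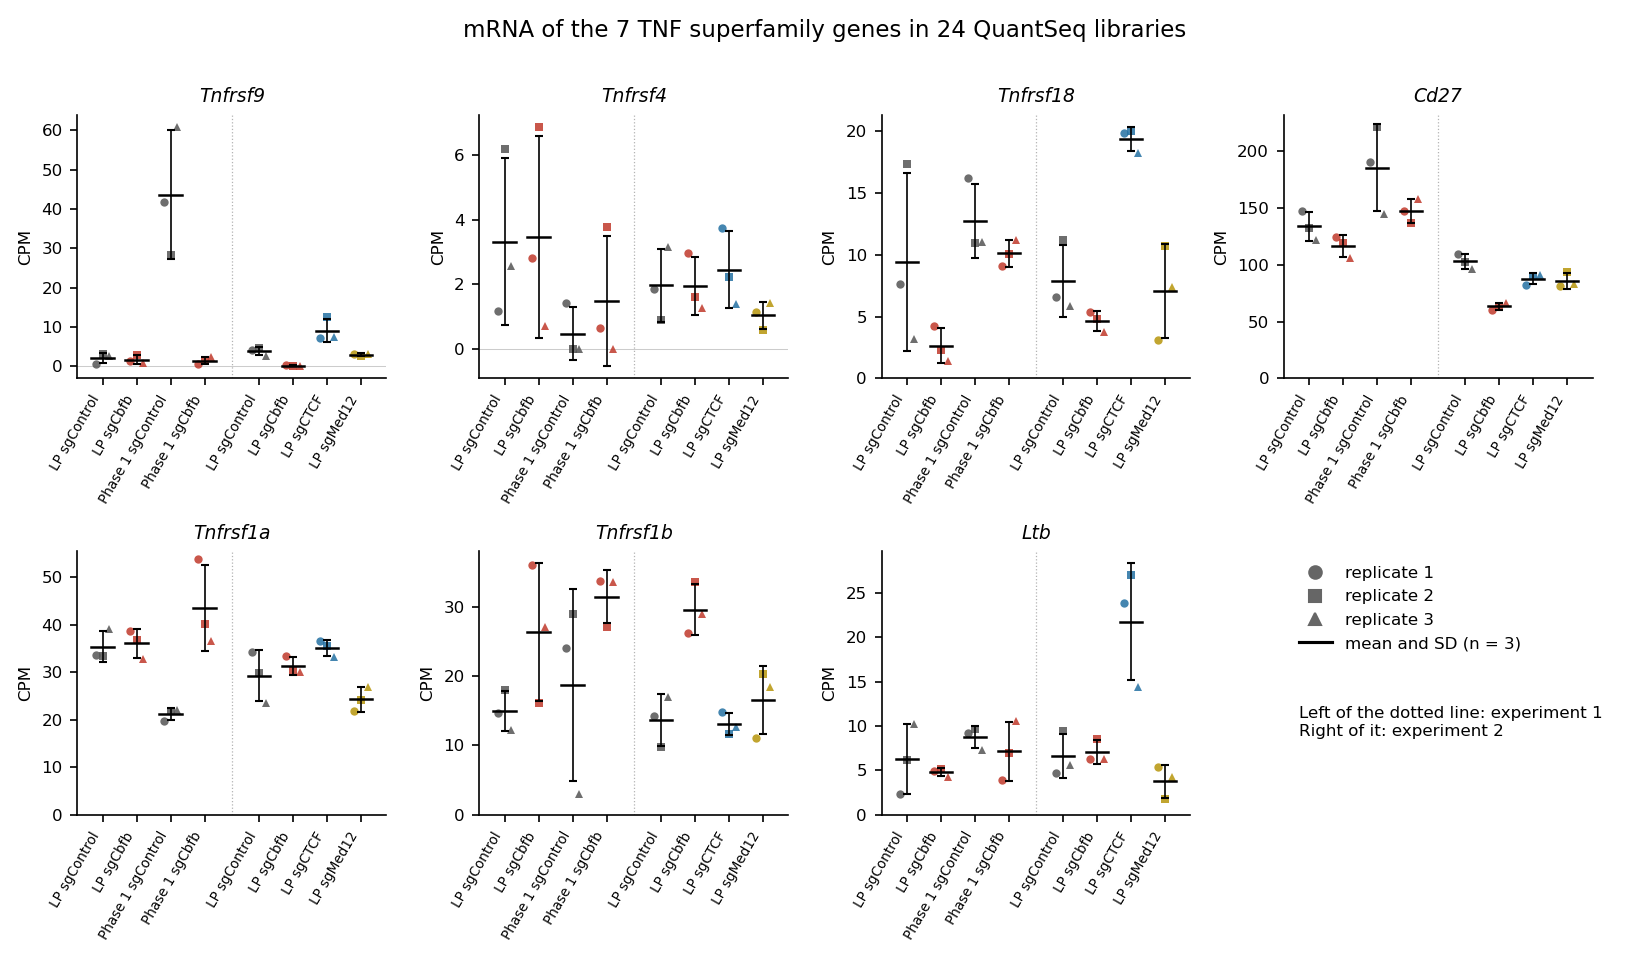
CPM of each of the 7 genes in each of the 24 libraries (points) with the group mean and SD (bars), in 1 panel per gene, with the 4 groups of each experiment side by side. Tnfrsf9 stood at 28.4 to 60.9 CPM in the Phase 1 sgControl libraries and at 3.10 CPM or less in the other libraries of experiment 1.

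Tnfrsf9 encodes 4-1BB, a receptor that activated T and NK cells display. In LPs of experiment 1 it was 0.59, 3.095 and 2.57 CPM with sgControl and 1.41, 2.87 and 0.713 CPM with sgCbfb. In Phase 1 cells it was 41.6, 28.4 and 60.9 CPM with sgControl and 0.648, 1.26 and 2.36 CPM with sgCbfb. The Phase 1 sgControl libraries were thus high, above all 9 other libraries, and the other 3 groups overlapped one another. The means were 2.09 ± 1.32 and 1.66 ± 1.1 CPM in LPs and 43.6 ± 16.3 and 1.42 ± 0.866 CPM in Phase 1 cells (SD, n = 3 in each). With sgControl, Tnfrsf9 was 20.9-fold higher in Phase 1 cells than in LPs (log2 difference 3.90 ± 0.55), whereas with sgCbfb the stages differed by -0.12 ± 0.55. Within Phase 1 cells it was 30.7-fold lower with sgCbfb, which held 7 reads in its 3 libraries (log2 difference -4.20 ± 0.55). The size of this log2 difference depended on the number added before the logarithm, at -4.94 with 0.1 CPM and -2.88 with 5 CPM.

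In LPs of experiment 2, Tnfrsf9 was 4.22, 4.73 and 2.68 CPM with sgControl and 0.298, 0 and 0 CPM with sgCbfb. With sgCTCF it was 7.25, 12.5 and 7.395 CPM, and with sgMed12 3.11, 2.62 and 3.12 CPM. The sgCTCF libraries were the highest and did not overlap any other group, the sgControl and sgMed12 libraries overlapped, and every sgCbfb library was below all of these. The sgCbfb group held 1 read against 43 with sgControl, a rate ratio of 0.0237 (exact 95% interval from 0.000588 to 0.14). The mean with sgCTCF, 9.06 ± 3.01 CPM, was 2.34-fold that of sgControl, 3.87 ± 1.07 CPM (SD, n = 3; log2 difference 1.03 ± 0.33). With sgMed12 the mean was 2.95 ± 0.289 CPM (log2 difference -0.28 ± 0.33). The LPs of experiment 1, with fewer reads per library, held 8 reads with sgCbfb and 10 with sgControl, a rate ratio of 0.853 (exact 95% interval from 0.293 to 2.40). Without LP sgCbfb replicate 2 this interval ran from 0.0916 to 2.01. Both intervals hold counting error only, and the difference between the experiments was not tested.

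Tnfrsf18 encodes GITR, a costimulatory receptor of T cells. Its LP libraries of experiment 1 were at 7.67, 17.3 and 3.21 CPM with sgControl and 4.23, 2.29 and 1.43 CPM with sgCbfb. The Phase 1 libraries were at 16.2, 10.97 and 11.003 CPM with sgControl and 9.08, 10.1 and 11.2 CPM with sgCbfb. The LP sgCbfb libraries were low, below every Phase 1 library, and they overlapped the LP sgControl libraries, which spread widely. The log2 difference of sgCbfb in LPs was -1.33 ± 0.52 and moved to -0.80 without LP sgControl replicate 2. With sgCbfb, Phase 1 cells (10.1 ± 1.06 CPM, SD, n = 3) were 3.81-fold above LPs (2.65 ± 1.44 CPM; log2 difference 1.67 ± 0.52). With sgControl the stages overlapped (9.41 ± 7.22 CPM in LPs, 12.7 ± 3.03 CPM in Phase 1 cells; log2 difference 0.63 ± 0.52), and this value ran from 0.10 without LP sgControl replicate 3 to 1.16 without LP sgControl replicate 2.

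In experiment 2, Tnfrsf18 was 19.9, 20.05 and 18.3 CPM with sgCTCF and 6.59, 11.2 and 5.84 CPM with sgControl. It was 5.37, 4.83 and 3.78 CPM with sgCbfb and 3.11, 10.8 and 7.38 CPM with sgMed12. The sgCTCF libraries stood above all others, and the other 3 groups overlapped in a chain from sgControl over sgMed12 to sgCbfb, with sgControl and sgCbfb apart. The mean with sgCTCF, 19.4 ± 0.983 CPM, was 2.46-fold the 7.89 ± 2.91 CPM of sgControl (SD, n = 3; log2 difference 1.25 ± 0.32). With sgCbfb the mean was 4.66 ± 0.807 CPM (log2 difference -0.61 ± 0.32, or -0.36 without sgControl replicate 2), and with sgMed12 7.08 ± 3.83 CPM (log2 difference -0.22 ± 0.32, or -0.55 without sgMed12 replicate 2).

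Tnfrsf4, the neighbour of Tnfrsf18, encodes the costimulatory receptor OX40. In experiment 1 it ranged from 1.18 to 6.19 CPM in LP sgControl, from 0.713 to 6.88 CPM in LP sgCbfb and from 0 to 3.77 CPM in Phase 1 sgCbfb libraries. The Phase 1 sgControl libraries held 2 reads in all, against 16 in LP sgControl, a rate ratio of 0.141 (exact 95% interval from 0.0157 to 0.598). Of the 16 reads, 10 lay in LP sgControl replicate 2, and without it the ratio was 0.25 (exact 95% interval from 0.0247 to 1.40). In experiment 2 the libraries were at 1.85, 0.886 and 3.17 CPM with sgControl, 2.98, 1.61 and 1.26 CPM with sgCbfb, 3.76, 2.23 and 1.39 CPM with sgCTCF and 1.13, 0.581 and 1.42 CPM with sgMed12. Each group overlapped its controls, and Phase 1 cells overlapped LPs with either guide. In LPs the log2 difference of sgCbfb was -0.04 ± 0.69 in experiment 1 and 0.02 ± 0.39 in experiment 2, that of sgCTCF was 0.24 ± 0.39 and that of sgMed12 -0.49 ± 0.39. In Phase 1 cells that of sgCbfb was 0.57 ± 0.69, from 7 reads against 2, and 6 of the 7 reads lay in Phase 1 sgCbfb replicate 2. The sgCTCF libraries of Tnfrsf4 overlapped the controls, where those of the nearby Tnfrsf18 did not.

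Cd27 encodes a receptor for CD70 that early lymphoid progenitors and lymphocytes display. In experiment 1 it was 147, 133 and 121 CPM in LP sgControl and 124, 119 and 106 CPM in LP sgCbfb libraries. It was 191, 221 and 145 CPM in Phase 1 sgControl and 147, 136 and 158 CPM in Phase 1 sgCbfb libraries. Every neighbour in the order of the 4 means overlapped, with Phase 1 sgControl (185 ± 38.4 CPM) at the top and LP sgCbfb (116 ± 9.53 CPM, SD, n = 3) at the bottom. Phase 1 sgControl was 1.39-fold above LP sgControl (log2 difference 0.45 ± 0.16), and the sgCbfb difference was -0.20 ± 0.16 in LPs and -0.31 ± 0.16 in Phase 1 cells. Phase 1 sgControl replicate 3 (145 CPM), the library that stood apart, alone made the guides overlap in Phase 1 cells, and it made this difference smaller. With sgCbfb, every Phase 1 library was above every LP library (log2 difference 0.34 ± 0.16).

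In experiment 2, Cd27 was 109.7, 103 and 96.2 CPM with sgControl and 60.2, 63.6 and 66.5 CPM with sgCbfb. It was 81.8, 90.2 and 90.8 CPM with sgCTCF and 81.1, 93.9 and 82.6 CPM with sgMed12. Every library with a targeting guide was below every sgControl library, the sgCbfb libraries were the lowest, and the sgCTCF and sgMed12 libraries overlapped. The mean was 1.62-fold lower with sgCbfb (63.4 ± 3.15 against 103 ± 6.77 CPM, SD, n = 3; log2 difference -0.69 ± 0.12). The smaller differences were -0.23 ± 0.12 with sgCTCF and -0.26 ± 0.12 with sgMed12. In bulk RNA, fewer cells that display a gene and less of its RNA in each cell cannot be told apart.

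Tnfrsf1a encodes TNFR1, a receptor for TNF with a death domain. In LPs of experiment 1 it was 33.6, 33.4 and 39.2 CPM with sgControl and 38.8, 36.7 and 32.8 CPM with sgCbfb. In Phase 1 cells it was 19.8, 21.9 and 22.01 CPM with sgControl and 53.8, 40.2 and 36.5 CPM with sgCbfb. The Phase 1 sgControl libraries were low, below all 9 other libraries, and the other 3 groups overlapped. With sgControl, Phase 1 cells (21.2 ± 1.28 CPM) were 1.67-fold below LPs (35.4 ± 3.26 CPM, SD, n = 3; log2 difference -0.71 ± 0.24). With sgCbfb the stages differed by 0.25 ± 0.24. In Phase 1 cells the sgCbfb mean, 43.5 ± 9.101 CPM, was 2.05-fold that of sgControl (log2 difference 0.98 ± 0.24), and in LPs the guides differed by 0.03 ± 0.24.

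In LPs of experiment 2, Tnfrsf1a was 34.3, 29.8 and 23.6 CPM with sgControl and 33.4, 30.6 and 29.98 CPM with sgCbfb. It was 36.5, 35.6 and 33.3 CPM with sgCTCF and 21.8, 24.1 and 26.97 CPM with sgMed12. Neighbours in the order of the means overlapped throughout, and the sgCTCF libraries were all above the sgMed12 libraries. The log2 difference from sgControl was 0.11 ± 0.17 with sgCbfb, 0.27 ± 0.17 with sgCTCF and -0.25 ± 0.17 with sgMed12, and sgMed12 differed from sgCTCF by -0.52 ± 0.17.

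Tnfrsf1b encodes TNFR2, a TNF receptor without a death domain. In experiment 1 it was 14.8, 17.96 and 12.2 CPM in LP sgControl and 35.97, 16.1 and 27.1 CPM in LP sgCbfb libraries. It was 23.998, 29.03 and 2.93 CPM in Phase 1 sgControl and 33.7, 27.02 and 33.6 CPM in Phase 1 sgCbfb libraries. The low value of 2.93 CPM belongs to Phase 1 sgControl replicate 3, the library that stood apart, and the 2 other Phase 1 sgControl libraries lay near those with sgCbfb. The log2 difference of sgCbfb in Phase 1 cells was 1.17 ± 0.52 and moved to 0.24 without that library. Between the stages with sgControl it was -0.14 ± 0.52 with that library and 0.79 without it. In LPs the mean was 1.76-fold higher with sgCbfb (26.4 ± 9.98 against 14.97 ± 2.88 CPM, SD, n = 3), with overlapping groups (log2 difference 0.72 ± 0.52, or 0.47 without LP sgCbfb replicate 1).

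In experiment 2, Tnfrsf1b was 14.2, 9.75 and 17.05 CPM with sgControl and 26.2, 33.5 and 28.97 CPM with sgCbfb. It was 14.8, 11.7 and 12.7 CPM with sgCTCF and 11.02, 20.3 and 18.5 CPM with sgMed12. Every sgCbfb library was above all 9 others, which overlapped one another. The sgCbfb mean, 29.6 ± 3.68 CPM, was 2.16-fold the 13.7 ± 3.68 CPM of sgControl (SD, n = 3; log2 difference 1.08 ± 0.24). The differences of sgCTCF and sgMed12 from sgControl were -0.04 ± 0.24 and 0.25 ± 0.24. The value of sgMed12 was smaller without sgMed12 replicate 2 (20.3 CPM), the library that stood apart. Of the TNF receptors, TNFR2 was thus higher with sgCbfb in these LPs, while the libraries of TNFR1 overlapped the controls.

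Ltb, the lymphotoxin beta ligand, was 2.36, 6.19 and 10.3 CPM in LP sgControl and 4.94, 5.16 and 4.28 CPM in LP sgCbfb libraries of experiment 1. It was 9.18, 9.68 and 7.34 CPM in Phase 1 sgControl and 3.89, 6.91 and 10.6 CPM in Phase 1 sgCbfb libraries. Neighbours in the order of the 4 means overlapped. The log2 difference of sgCbfb was -0.17 ± 0.51 in LPs and -0.34 ± 0.51 in Phase 1 cells. The LP value changed sign without LP sgControl replicate 3, and the Phase 1 value was smaller in size without Phase 1 sgCbfb replicate 1. The stages differed by 0.58 ± 0.51 with sgControl, a value that ran from 0.10 without LP sgControl replicate 1 to 0.98 without LP sgControl replicate 3.

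In experiment 2, Ltb was 4.75, 9.45 and 5.6 CPM with sgControl and 6.26, 8.58 and 6.298 CPM with sgCbfb. It was 23.9, 27.01 and 14.3 CPM with sgCTCF and 5.37, 1.74 and 4.26 CPM with sgMed12. The sgCTCF libraries were high and did not overlap any other group, and the remaining neighbours overlapped. The sgCTCF mean, 21.7 ± 6.61 CPM, was 3.29-fold the 6.599 ± 2.51 CPM of sgControl (SD, n = 3; log2 difference 1.58 ± 0.33). With sgMed12 the mean of 3.79 ± 1.86 CPM was 1.74-fold lower than sgControl (log2 difference -0.70 ± 0.33), and this was -0.34 without sgMed12 replicate 2, the library that stood apart, and -0.45 without sgControl replicate 2. With sgCbfb the log2 difference was 0.12 ± 0.33.

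Set against one another, the targeting guides of experiment 2 left different levels. Relative to sgCTCF, sgMed12 had 5.74-fold less Ltb (log2 difference -2.29 ± 0.33) and 2.74-fold less Tnfrsf18 (log2 difference -1.46 ± 0.32), and its Tnfrsf9 differed by -1.31 ± 0.33. Relative to sgCbfb, sgCTCF differed by 1.47 ± 0.33 for Ltb, 1.86 ± 0.32 for Tnfrsf18 and -1.12 ± 0.24 for Tnfrsf1b. Relative to sgCbfb, sgMed12 differed by -0.83 ± 0.24 for Tnfrsf1b, 0.43 ± 0.12 for Cd27 and -0.82 ± 0.33 for Ltb, the last -0.46 without sgMed12 replicate 2. Tnfrsf9, with its 1 read in sgCbfb, differed by 3.17 ± 0.33 with sgCTCF and 1.85 ± 0.33 with sgMed12 relative to sgCbfb. With 5 CPM added before the logarithm these came to 1.44 and 0.64, below the size of the Ltb difference between sgMed12 and sgCTCF (-1.60). These 3 groups were each also compared with the same sgControl libraries, so the comparisons share controls and are given side by side only.

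**Figure D2:**
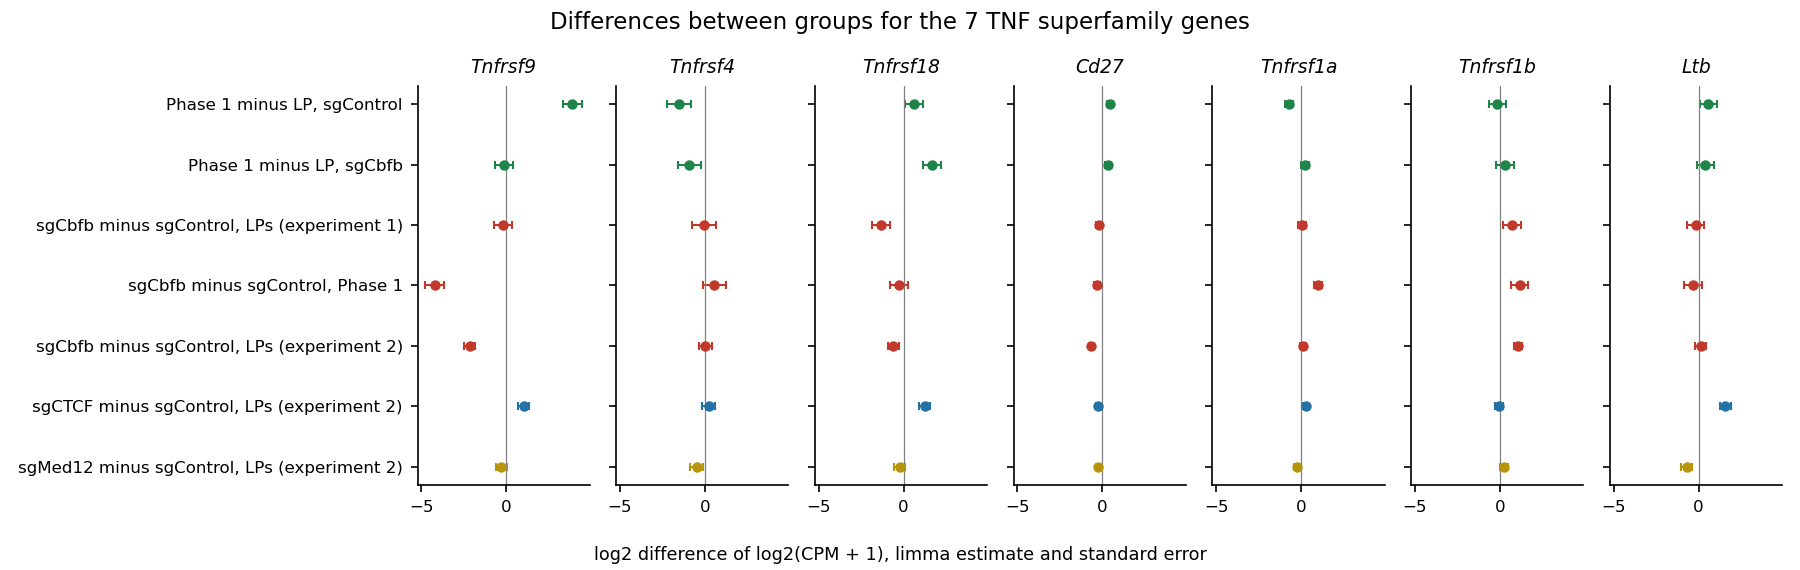
Log2 difference from limma (x axis, log2 of CPM + 1) with its standard error (bars) for each of the 7 genes in 7 comparisons of groups. Tnfrsf9 has the most distant values, at 3.90 between the stages with sgControl and -4.20 with sgCbfb in Phase 1 cells.

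The comparisons are now taken in turn, with the counts of all genes called as the background and with the other genes of the pathway, none of them among the 7. Their lists hold 22 further TNF receptors, 17 further TNF ligands, 26 adaptors and enzymes that receptors recruit, 15 subunits, inhibitors and kinases of NF-kB, and 17 NF-kB response genes. The filter kept 11, 8, 26, 15 and 11 of them in experiment 1 and 10, 7, 26, 15 and 11 in experiment 2. List medians are of the limma log2 difference, and they describe the lists without a test. For all lists, counts at an unadjusted P under 0.05 are given without the share of all genes at that level, so no excess is read from them.

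With sgCbfb in LPs of experiment 1, none of the 7 genes passed the thresholds, beside 1.10% of all genes tested called higher (145 of 13239) and 0.597% called lower (79 of 13239). The 1 gene of the pathway lists that was called was Nfkbia, which encodes the NF-kB inhibitor IkBα and is itself an NF-kB target. It was 616, 558 and 524 CPM with sgControl and 2006, 1748 and 1781 CPM with sgCbfb. Every sgCbfb library was above every control, and Nfkbia rose 3.26-fold (log2 difference 1.70 ± 0.27, limma adjusted P = 0.00041), as 1 of the 15 NF-kB genes. Of the other receptors, 8 of 11 had a difference above 0, with a median of 0.60 beside 0 over all genes, and limma called 0 of them, with 3 at an unadjusted P under 0.05 and 0 called by edgeR. Tnfrsf13b, which encodes the BAFF and APRIL receptor TACI, was 169 ± 14.6 CPM with sgCbfb and 96.95 ± 9.28 CPM with sgControl (log2 difference 0.80 ± 0.22, limma adjusted P = 0.053), higher in 3 of 3 libraries but not called. The ligand median was 0.43, with 0 of 8 called by limma or edgeR and 2 at an unadjusted P under 0.05. Tnfsf8, the CD30 ligand, had 7.78 ± 1.95 against 1.24 ± 1.07 CPM (log2 difference 2.05 ± 0.50, limma adjusted P = 0.025) with 3 of 3 libraries higher, and was not called because its means were under 10 CPM. The NF-kB response list had a median of -0.14, with 0 of 11 called by limma or edgeR and 2 at an unadjusted P under 0.05.

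With sgCbfb in Phase 1 cells, Tnfrsf1a was the 1 of the 7 genes that passed the thresholds higher, beside 1.96% of all genes (260 of 13239), and Tnfrsf9 the 1 that passed them lower, beside 1.56% (206 of 13239). Since the genes were chosen on these libraries, nothing is read from these counts. The fold of Tnfrsf1a sat at the threshold and came under 2 without Phase 1 sgCbfb replicate 1 (1.81) or Phase 1 sgControl replicate 1 (1.98) and with median-of-ratios scaling (1.97), and it did not pass with only the 2 groups fitted. Nfkbia was again high with sgCbfb, at 741, 638 and 675 CPM against 283, 249.7 and 80.7 CPM with sgControl. It rose 3.35-fold with no overlap (log2 difference 1.93 ± 0.27, limma adjusted P = 6.1e-05), and by 1.36 log2 units without Phase 1 sgControl replicate 3. Tnfrsf13b was 88.2, 66.4 and 35.2 CPM with sgControl and 145, 145 and 142 CPM with sgCbfb, so that all 3 sgCbfb libraries were higher. It rose 2.27-fold (log2 difference 1.27 ± 0.22, limma adjusted P = 0.00066), 1 of 11 receptors called. Without Phase 1 sgControl replicate 3 its log2 difference was 0.90 and its fold came under 2, so the call was lost. Among NF-kB response genes, the survival gene Bcl2l1 rose from 15.9 ± 3.43 to 38.9 ± 1.796 CPM (SD, n = 3; log2 difference 1.26 ± 0.28, limma adjusted P = 0.0069) and the immediate early gene Ier3 fell from 66.2 ± 4.82 to 23.1 ± 3.77 CPM (log2 difference -1.49 ± 0.23, limma adjusted P = 0.00021), each in 3 of 3 libraries. The list medians were 0.60 for receptors, 0.37 for ligands, 0.06 for NF-kB genes and 0.39 for response genes, beside 0.06 over all genes. Limma called 0 of 8 ligands, with 1 at an unadjusted P under 0.05 and 0 called by edgeR.

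Between Phase 1 cells and LPs with sgControl, Tnfrsf9 was the 1 of the 7 genes that passed higher, beside 1.65% of all genes (218 of 13239), and none passed lower, beside 1.74% (231 of 13239). Of the 15 NF-kB genes 3 were called, 1 higher and 2 lower, with a list median of 0.09, and 2 of these calls did not hold in every setting. Nfkbia fell from 566 ± 46.3 to 205 ± 109 CPM (SD, n = 3; log2 difference -1.65 ± 0.27, limma adjusted P = 0.00029) in 3 of 3 libraries, and its difference was -1.08 without Phase 1 sgControl replicate 3. Nfkb2, the precursor of the p52 subunit of the alternative pathway, rose from 7.103 ± 3.16 to 20.1 ± 5.16 CPM in 3 of 3 libraries (log2 difference 1.42 ± 0.40, limma adjusted P = 0.034). This call was lost without LP sgControl replicate 2 or 3 or Phase 1 sgControl replicate 2 or 3, or with no filter on low values or only the 2 groups fitted, at adjusted P values up to 0.14. Bcl3, an IkB family member that binds p50 and p52, fell from 24.6 ± 2.41 to 9.402 ± 2.28 CPM in 3 of 3 libraries (log2 difference -1.32 ± 0.35, limma adjusted P = 0.023). It was not called when any LP sgControl library or Phase 1 sgControl replicate 1 was left out, or with only the 2 groups fitted, at adjusted P values up to 0.096. The other receptors had a median of -0.66, or -0.58 with groups at 0 set to their floor, beside -0.07 over all genes, and the ligands a median of 0.59. In both lists limma and edgeR called 0, with 2 genes in each at an unadjusted P under 0.05. The response genes had a median of -0.07, with 0 of 11 called by limma or edgeR and 4 at an unadjusted P under 0.05.

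Between Phase 1 cells and LPs with sgCbfb, none of the 7 genes passed the thresholds, beside 0.740% of all genes called higher (98 of 13239) and 0.453% called lower (60 of 13239). Nfkbia fell here too, from 1845 ± 140.4 to 685 ± 52 CPM in 3 of 3 libraries (SD, n = 3; log2 difference -1.43 ± 0.27, limma adjusted P = 0.0029), as 1 of 15 NF-kB genes. The medians of receptors, ligands and response genes were 0, 0.43 and 0.27, beside -0.01 over all genes. Limma and edgeR called 0 genes in each of these lists, with 3, 1 and 3 genes at an unadjusted P under 0.05.

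The interaction asks whether the sgCbfb difference itself differed between the stages. Tnfrsf9 was the 1 of the 7 genes that passed lower, beside 0.597% of all genes (79 of 13239), at a difference of differences of -4.02 ± 0.78, and none passed higher, beside 0.589% (78 of 13239). For the other receptors this value was 1.05 ± 0.74 for Tnfrsf18, 0.96 ± 0.33 for Tnfrsf1a, 0.61 ± 0.98 for Tnfrsf4, 0.45 ± 0.74 for Tnfrsf1b and -0.11 ± 0.22 for Cd27, and for Ltb it was -0.17 ± 0.73. Without Phase 1 sgControl replicate 3 it was -0.49 for Tnfrsf1b, -0.28 for Cd27, -0.28 for Ltb and 0.40 for Tnfrsf4. With a pseudocount of 0.1 CPM Tnfrsf9 did not pass. Its LP libraries of experiment 1 held 10 reads with sgControl and 8 with sgCbfb, so a fall there could not reach the size seen in Phase 1 cells on this scale. In the deeper LPs of experiment 2 it held 43 reads with sgControl and 1 with sgCbfb. The value of Tnfrsf18 ran from 0.51 without LP sgControl replicate 2 to 1.57 without LP sgControl replicate 3. For Nfkbia no difference between the stages was detected (log2 difference 0.23 ± 0.38, limma adjusted P = 0.9), and its sign rested on Phase 1 sgControl replicate 3, without which it was -0.34 (adjusted P = 0.31). Limma and edgeR called 0 genes of any of the 5 lists, with 1 receptor, 1 ligand, 0 adaptors, 3 NF-kB genes and 3 response genes at an unadjusted P under 0.05.

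With sgCbfb in LPs of experiment 2, Tnfrsf1b was the 1 of the 7 genes that passed higher, beside 2.67% of all genes (352 of 13177), and none passed lower, beside 1.65% (218 of 13177). Without sgControl replicate 2 the fold of Tnfrsf1b was 1.89, under the threshold. Of the 7 further ligands tested, 3 rose. Tnfsf8 was 2.901, 3.54 and 2.44 CPM with sgControl and 15.5, 24.7 and 14.4 CPM with sgCbfb, and rose 6.14-fold with no overlap (log2 difference 2.25 ± 0.30, limma adjusted P = 3.1e-06). Tnf, the ligand of TNFR1 and TNFR2, was 7.65, 3.84 and 1.95 CPM with sgControl and 16.7, 8.04 and 14.6 CPM with sgCbfb. All 3 sgCbfb libraries were above the controls (log2 difference 1.45 ± 0.34, limma adjusted P = 0.0041). Lta, which encodes lymphotoxin alpha, the partner of lymphotoxin beta, rose 2.68-fold to 15.8, 8.31 and 13.1 CPM from 5.01, 3.54 and 5.36 CPM in 3 of 3 libraries (log2 difference 1.22 ± 0.33, limma adjusted P = 0.013). That call was lost without sgCbfb replicate 1 or 3 or sgControl replicate 2 and with no filter on low values, at adjusted P values of 0.08, 0.052, 0.065 and 0.055. Ltb, beside them on chromosome 17, overlapped the controls with sgCbfb.

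Tnfrsf13b rose in these LPs from 69.1, 82.4 and 66.7 to 138, 159.8 and 141 CPM, without overlap (log2 difference 1.0 ± 0.12, limma adjusted P = 6.9e-07), 1 of 10 receptors called. Its fold of 2.01 sat at the threshold and came under 2 without sgCbfb replicate 2, sgControl replicate 1 or sgControl replicate 3, at log2 differences of 0.94, 0.97 and 0.94. Nfkbia rose 3.19-fold, from 426 ± 35.3 to 1359 ± 76.9 CPM in 3 of 3 libraries (SD, n = 3; log2 difference 1.67 ± 0.12, limma adjusted P = 1.1e-10). Gadd45b, a stress response gene, fell from 22.9 ± 4.49 to 7.22 ± 1.51 CPM in 3 of 3 libraries (log2 difference -1.54 ± 0.27, limma adjusted P = 0.00018). The medians were 0.40 for receptors, with 9 of 10 above 0, 0.37 for ligands, 0.04 for NF-kB genes and -0.03 for response genes, beside -0.01 over all genes.

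With sgCTCF, Tnfrsf18 and Ltb were the 2 of the 7 genes that passed higher, beside 1.81% of all genes (238 of 13177), and none passed lower, beside 0.622% (82 of 13177). Tnfrsf18 did not pass without sgCTCF replicate 1 or 2 or sgControl replicate 1 or 3, or with no filter on low values. The death receptor gene Fas and the lymphotoxin gene Lta rose as well. Fas was 3.16, 2.95 and 2.44 CPM with sgControl and 12.9, 10.3 and 11.6 CPM with sgCTCF, and rose 4.06-fold with no overlap (log2 difference 1.71 ± 0.35, limma adjusted P = 0.0016), 1 of 10 receptors called. Lta was 17.2, 13.1 and 17.6 CPM with sgCTCF, all above the controls, and rose 3.44-fold (log2 difference 1.59 ± 0.33, limma adjusted P = 0.002), 1 of 7 ligands called. Lta and Ltb, which lie 6844 bases apart, were thus both high in the sgCTCF libraries. Tnf, which lies between them, was 5.52 ± 1.09 CPM and overlapped sgControl (log2 difference 0.38 ± 0.34, limma adjusted P = 0.58). Nfkbia was 343 ± 53.6 CPM, not called (log2 difference -0.32 ± 0.12, limma adjusted P = 0.096), and differed from sgCbfb by -1.99 ± 0.12 (limma adjusted P = 2.3e-12). The medians were 0.01 for receptors, 0.66 for ligands, 0.27 for NF-kB genes and 0.11 for response genes, beside -0.02 over all genes. Limma and edgeR called 0 NF-kB genes and 0 response genes, with 5 and 3 at an unadjusted P under 0.05.

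With sgMed12, none of the 7 genes passed the thresholds, beside 0.668% of all genes called higher (88 of 13177) and 0.364% called lower (48 of 13177). These counts moved in both directions with the settings. They were 243 and 115 without sgMed12 replicate 2, were as low as 22 higher without sgMed12 replicate 3 and 31 lower without sgControl replicate 2, and were 27 and 30 with only the 2 groups fitted and 24 and 30 with no filter on low values. Bcl3 fell in 3 of 3 libraries, from 20.3 ± 8.61 to 10.01 ± 2.56 CPM (SD, n = 3; log2 difference -0.91 ± 0.27, limma adjusted P = 0.038), as 1 of 15 NF-kB genes, and the call was lost without sgControl replicate 1 or 2, sgMed12 replicate 1 or 3 or any sgCTCF library, at adjusted P values up to 0.23. It was also lost with no filter on low values or only the 2 groups fitted (adjusted P = 0.11 in both), and with median-of-ratios scaling. Nfkbia was 439 ± 77.04 CPM and overlapped sgControl (log2 difference 0.04 ± 0.12, limma adjusted P = 0.9). The medians were 0.07 for receptors, 0.46 for ligands, 0.06 for NF-kB genes and 0 for response genes, beside -0.02 over all genes. Limma and edgeR called 0 receptors, 0 ligands and 0 response genes, with 2, 1 and 4 at an unadjusted P under 0.05.

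Of the adaptors and enzymes that TNF receptors recruit, such as the TRAF proteins, limma and edgeR called 0 of 26 in each of the 8 comparisons. Between 0.364% and 2.67% of all genes were called per direction, so a list of this size need not hold a called gene. Its medians ran from 0 to 0.13. In experiment 1 the counts at an unadjusted P under 0.05 were 3 with sgCbfb in LPs, 3 with sgCbfb in Phase 1 cells, 3 between stages with sgControl, 2 between stages with sgCbfb and 0 for the interaction. In experiment 2 they were 6 with sgCbfb, 7 with sgCTCF and 4 with sgMed12.

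**Figure D3:**
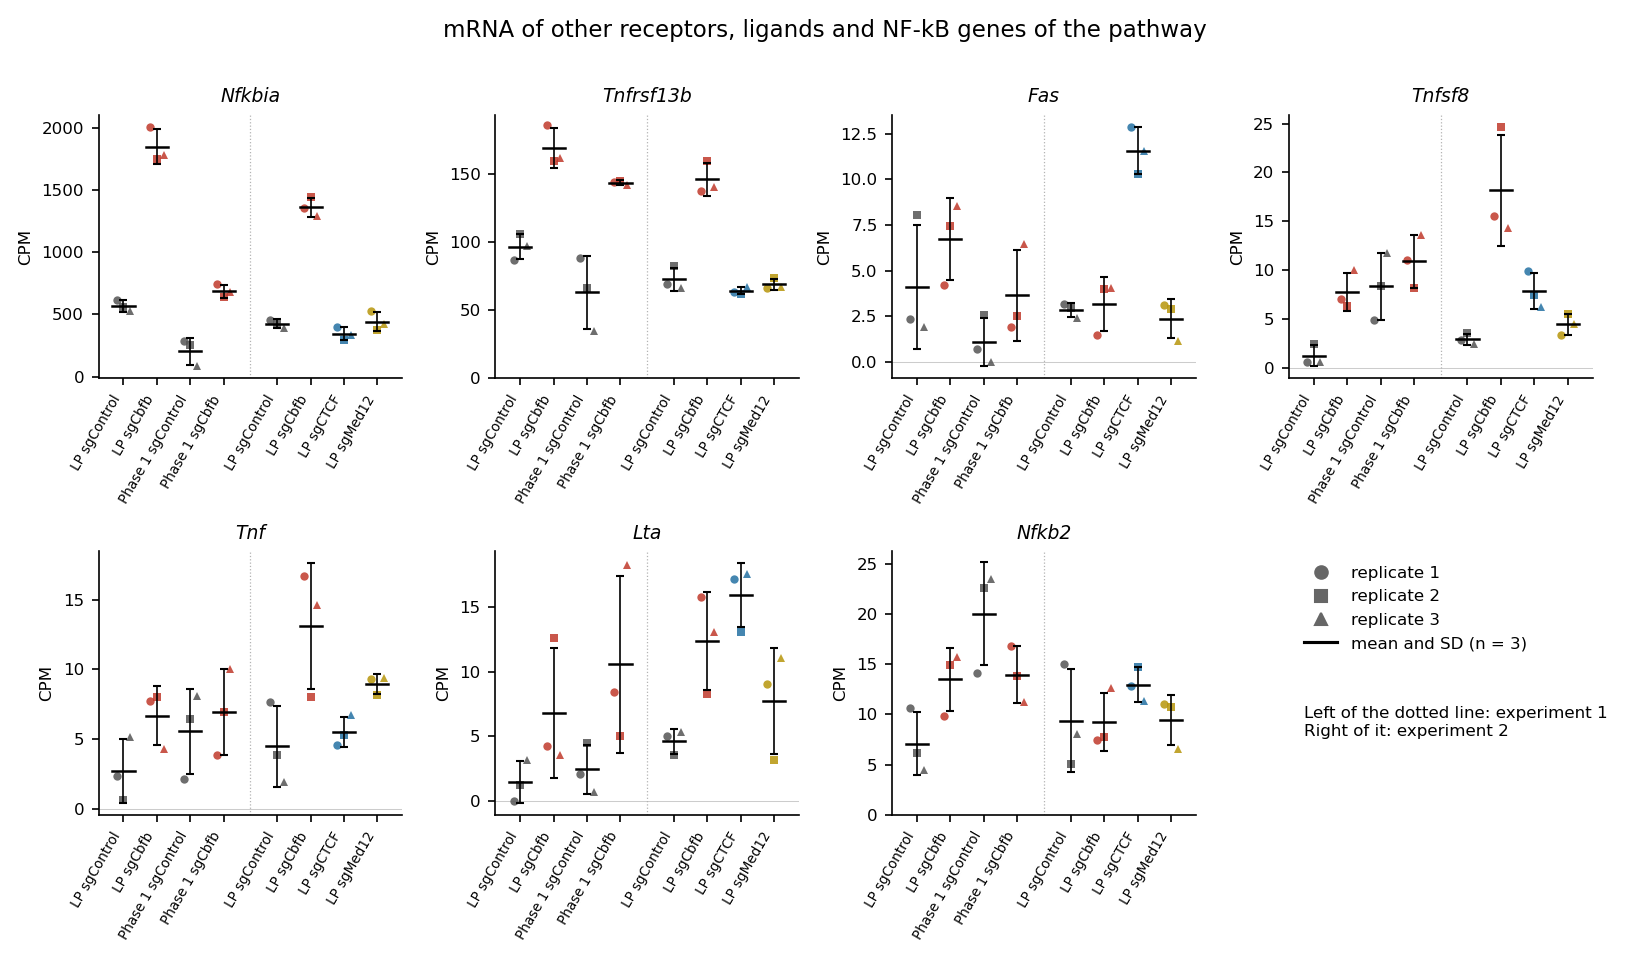
CPM (y axis) of 7 further genes of the pathway, Nfkbia, Tnfrsf13b, Fas, Tnfsf8, Tnf, Lta and Nfkb2, in each of the 24 libraries (points) with the group mean and SD (bars). Nfkbia is higher in every sgCbfb library than in every sgControl library of the same stage and experiment, and Fas is highest in the sgCTCF libraries of experiment 2, at 10.3 to 12.9 CPM.

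Summed markers of other cell types differed between the same groups, and their part in the levels of the 7 genes was not tested. Beside the levels of Tnfrsf9 and Tnfrsf1a in Phase 1 cells, the 12 Notch and early T genes summed to 474, 330 and 367 CPM in LP sgControl and 2129, 1992 and 1781 CPM in Phase 1 sgControl libraries. They summed to 477, 491 and 496 CPM in LP sgCbfb and 1109, 1205 and 1109.7 CPM in Phase 1 sgCbfb libraries. In experiment 2 they summed to 298, 319 and 224 CPM with sgControl, 458, 536 and 425 CPM with sgCbfb, 358, 372 and 333 CPM with sgCTCF and 252, 246 and 274 CPM with sgMed12. The sums with sgCbfb, beside the higher Tnfrsf1b, and with sgCTCF, beside the higher Tnfrsf18 and Ltb, were thus above every control. Notch1 had the largest part in these sums, at a mean of 234.7 CPM over experiment 2. Cd3e was at 0 and Dtx1 and Ptcra were under 2 CPM in every library of that experiment. Log2 differences of the genes tested lay above 0 for 5 and below 0 for 4 with sgCbfb, and for 8 and 1 with sgCTCF. Of the 9 tested there, 2 rose (Il2ra and Notch1) and 1 fell (Bcl11b) with sgCbfb, 2 rose with sgCTCF (Tcf7 and Hes1) and 1 rose with sgMed12 (Hes1). By limma, between stages with sgControl 10 of the 12 rose and 0 fell, and with sgCbfb in Phase 1 cells 5 fell and 0 rose. In the latter comparison edgeR also called Nrarp higher and Dtx1 lower. Notch1 was the most abundant, at a mean of 459.2 CPM over experiment 1, and none of the 12 was at 0 in every library of that experiment. The 9 lymphoid progenitor genes summed to 3384, 3011 and 2893 CPM in LP sgControl and 1587, 1570.3 and 1638 CPM in Phase 1 sgControl libraries, with 4 of them called lower. With sgCbfb they summed to 3664, 3126 and 2975 CPM in LPs and 2712, 2563 and 2488 CPM in Phase 1 cells, and 6 of the 9 were called higher with sgCbfb in Phase 1 cells. In experiment 2 they summed to 2689.8, 2973 and 2609 CPM with sgControl, 2825, 3035 and 2703 CPM with sgCbfb, 2949, 3043 and 2808 CPM with sgCTCF and 2377, 2281 and 2479 CPM with sgMed12, the last below every control. Of the 9, Dntt, Lmo2 and Rag1 rose with sgCbfb and Dntt fell with sgMed12.

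The sum of the 12 myeloid genes was higher with sgCbfb, beside the levels of Nfkbia and Tnfrsf13b. They summed to 310.4, 255 and 263 CPM in LP sgControl and 715, 679 and 642 CPM in LP sgCbfb libraries of experiment 1. In Phase 1 cells they summed to 174, 205 and 197 CPM with sgControl and 499.9, 505 and 508 CPM with sgCbfb. In experiment 2, beside the higher Tnfrsf1b, they summed to 313, 292 and 272 CPM with sgControl and 899, 918 and 816 CPM with sgCbfb. Of the myeloid genes tested, 2 of 7 rose in LPs of experiment 1, 3 of 7 in Phase 1 cells and 3 of 8 in experiment 2, among them Mrc1 and F13a1 each time. Fcer1g had the highest mean, at 134.1 and 185.5 CPM. Cd14 was at 0 in every library of both experiments, and the neutrophil genes S100a8 and S100a9 were at 0 in every library of experiment 2 and under 2 CPM in every library of experiment 1.

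The sum of innate lymphoid and NK genes was higher with sgCTCF, beside Tnfrsf18, Tnfrsf9 and Ltb. The 8 genes summed to 297, 311 and 292 CPM with sgCTCF and 157, 196 and 160.2 CPM with sgControl, and of the 5 tested 1 rose, the NK receptor gene Klrd1. Most of this sum was Id2, at 276 ± 5.33 CPM with sgCTCF and 159.8 ± 21.2 CPM with sgControl (SD, n = 3), which was under the fold threshold, while Tbx21 and Ncr1 were under 2 CPM in every library of experiment 2. With sgCbfb they summed to 132, 135 and 127 CPM and with sgMed12 to 114, 133 and 99.6 CPM. In experiment 1, beside the level of Tnfrsf9, they summed to 200.1, 174 and 152 CPM in LP sgControl, 167, 143 and 121 CPM in LP sgCbfb, 279.5, 300 and 336 CPM in Phase 1 sgControl and 229, 202 and 188 CPM in Phase 1 sgCbfb libraries. Of the 5 tested, Zbtb16 was the 1 that rose between stages with sgControl and the 1 that fell with sgCbfb in Phase 1 cells. The 9 mature T cell genes, with Trac as the most abundant, summed to 77.1 ± 7.45 CPM with sgCTCF and 45.6 ± 14.5 CPM with sgControl, and limma and edgeR called 0 of the 4 tested, with 3 at an unadjusted P under 0.05. With sgCbfb they summed to 24.5 ± 6.51 CPM, where 1 of the 4 fell, Trac, and with sgMed12 to 36.9 ± 7.02 CPM. In experiment 1 they summed to 43.9 ± 1.83 CPM in LP sgControl, 211 ± 13.3 CPM in Phase 1 sgControl, 39.6 ± 6.26 CPM in LP sgCbfb and 120.1 ± 21.2 CPM in Phase 1 sgCbfb libraries, with Trbc1 as the most abundant. Of the 6 tested, Ctla4, Cd28 and Trbc1 rose and Trac fell between stages with sgControl, and Cd28 rose and Trbc1 fell with sgCbfb in Phase 1 cells.

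The remaining lists are given by their sums. The mast cell and basophil list rested on Kit and Cpa3 in experiment 1 and on Kit alone in experiment 2, where Cpa3 was under 2 CPM in every library. Fcer1a, Mcpt8, Ms4a2 and Prss34 were at 0 and Gata2 under 2 CPM in every library, so the list does not mark these cells. It summed to 30.8 ± 2.29 CPM in LP sgControl, 98.4 ± 7.77 CPM in LP sgCbfb, 199 ± 33.6 CPM in Phase 1 sgControl and 84.9 ± 9.01 CPM in Phase 1 sgCbfb libraries. In experiment 2 it summed to 37.2 ± 5.31 CPM with sgControl, 69.9 ± 13.3 CPM with sgCbfb, 20.01 ± 7.198 CPM with sgCTCF and 33.1 ± 2.45 CPM with sgMed12. Dendritic cell genes, with Clec9a and Xcr1 at 0 throughout, summed to 704 ± 29.3 CPM in LP sgControl, 582 ± 52.2 CPM in LP sgCbfb, 373 ± 93.8 CPM in Phase 1 sgControl and 398 ± 51.7 CPM in Phase 1 sgCbfb libraries. In experiment 2 they summed to 662 ± 67.1 CPM with sgControl, 734 ± 165 CPM with sgCbfb, 599 ± 16.4 CPM with sgCTCF and 658 ± 129 CPM with sgMed12. B cell genes, most of whose sum was Ebf1, came to 343 ± 59.6 CPM in LP sgControl, 188 ± 24.6 CPM in LP sgCbfb, 179 ± 31.4 CPM in Phase 1 sgControl and 165 ± 16.6 CPM in Phase 1 sgCbfb libraries. In experiment 2 they came to 287 ± 37.99 CPM with sgControl, 189.9 ± 26.7 CPM with sgCbfb, 212 ± 15.2 CPM with sgCTCF and 283 ± 69.1 CPM with sgMed12, and of the 4 tested 1 rose, Pax5 with sgCTCF. Stromal genes summed to 16.96 ± 15.7 CPM with sgControl and 31.1 ± 8.01 CPM with sgCTCF in experiment 2, with overlapping libraries, and to 17.98 ± 12.7 CPM with sgCbfb and 31.9 ± 17.99 CPM with sgMed12. With sgCTCF, beside the higher Tnfrsf18 and Ltb, 7 of the 8 stromal genes tested had a log2 difference above 0, with a median of 1.23 beside -0.02 over all genes, and with sgMed12 8 of 8 did, with a median of 0.72. Limma and edgeR called 0 of them in both, with 6 and 2 at an unadjusted P under 0.05. In the groups of experiment 1 the sum averaged between 9.57 and 16.3 CPM.

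**Figure D4:**
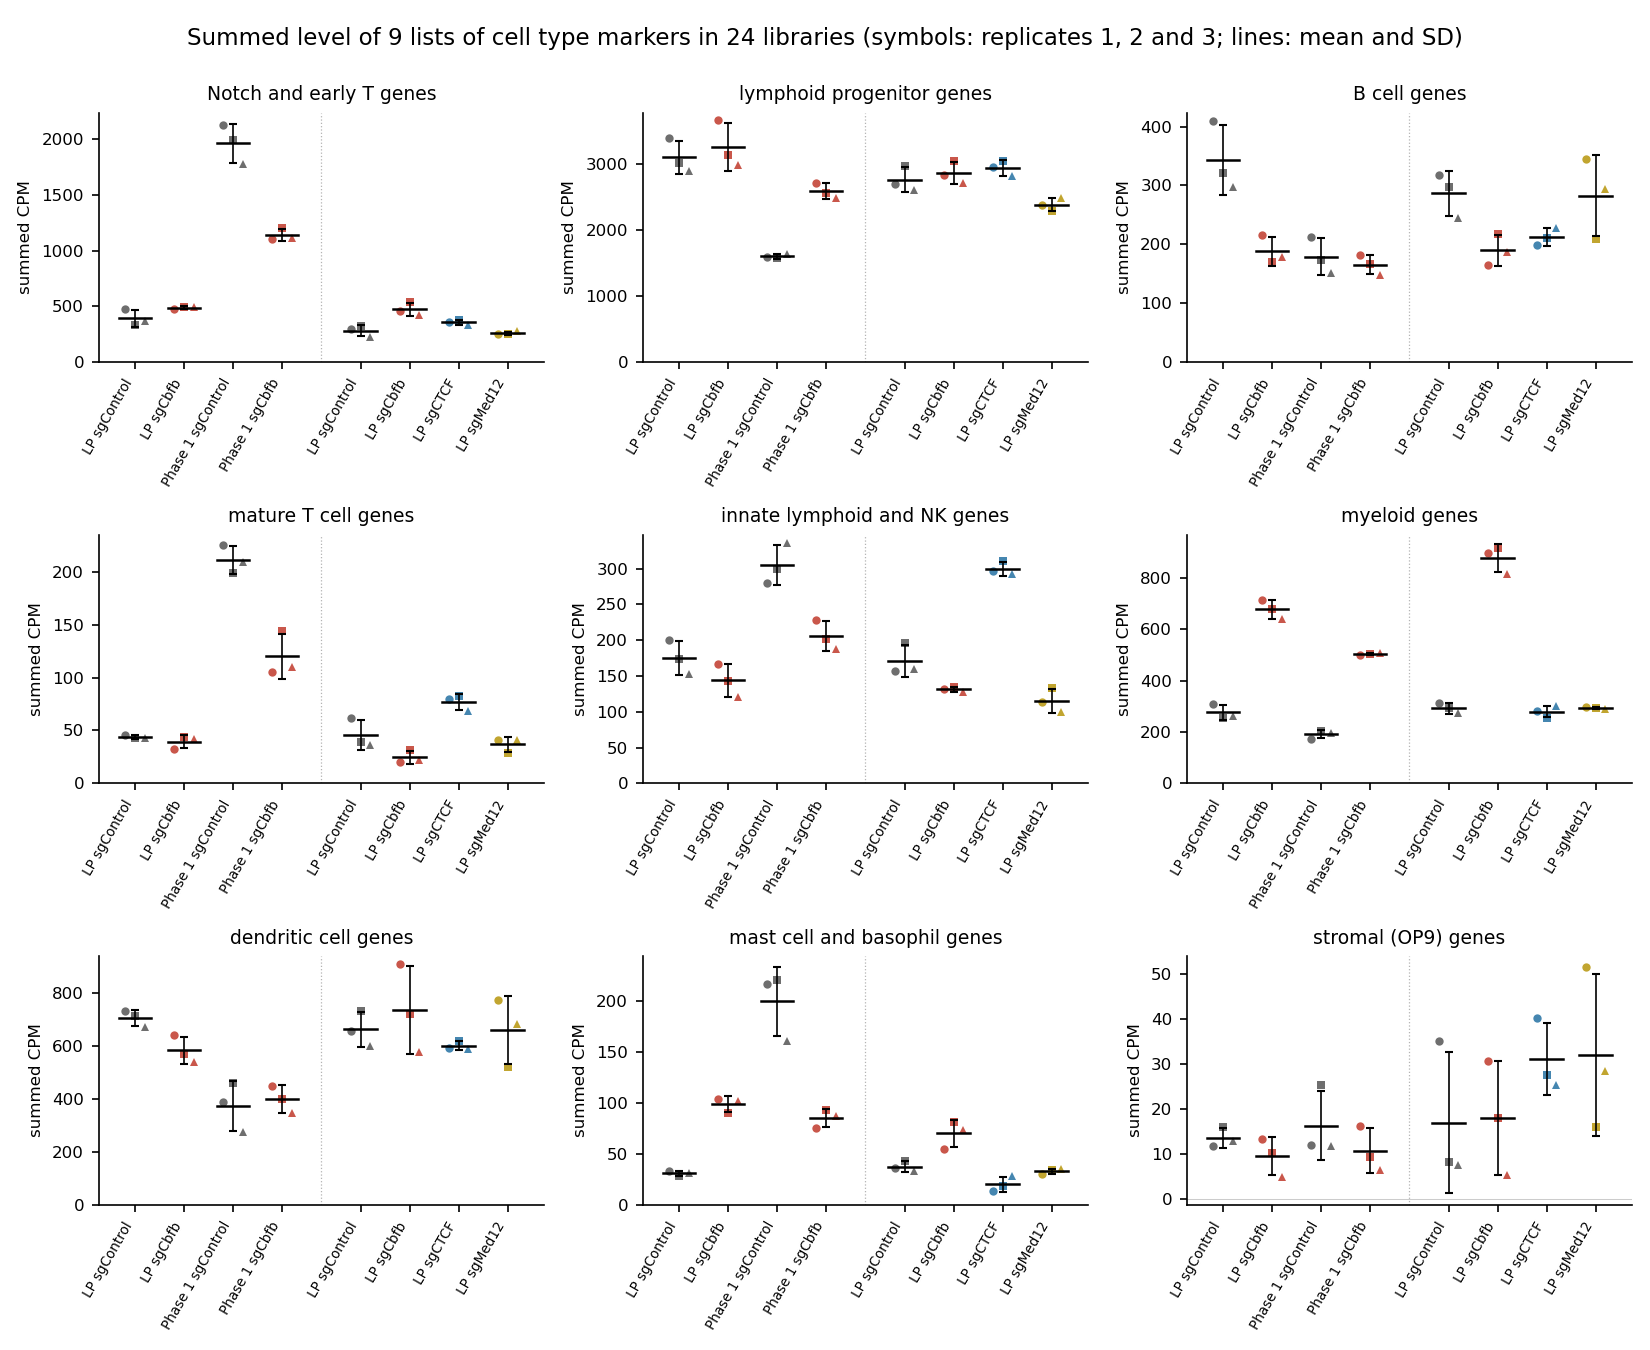
Summed CPM (y axis) of 9 lists of cell type markers in each of the 24 libraries (points) with the group mean and SD (bars). The myeloid sum is higher in every sgCbfb library than in every control of the same stage and experiment, and the Notch and early T sum is highest in the Phase 1 sgControl libraries, at 1781 to 2129 CPM.

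Genes with the most similar levels were sought over the 24 libraries, with each experiment centred on its own mean, among 8621 genes with a mean over 10 CPM in both experiments. The libraries share groups and controls, so these values describe similarity and carry no test. Tnfrsf18 was most like Cdh1 (Pearson r 0.851, Spearman rho 0.883), Evi2a (0.85 and 0.835) and Ptprc (0.825 and 0.804). Cdh1, which encodes E-cadherin, was 106 CPM on average with sgCTCF, 18.4 CPM with sgControl and 0.665 CPM with sgCbfb. Cd27 was most like Fkbp5 (0.874 and 0.817), Marcks (0.819 and 0.797) and Ly6d (0.809 and 0.733). In experiment 2, Fkbp5 averaged 174 CPM with sgControl and 75.1 CPM with sgCbfb, the low group of Cd27 as well.

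Tnfrsf1a was most like Lgalsl (Pearson r 0.855, Spearman rho 0.796), Mef2c (0.84 and 0.624) and Mprip (0.832 and 0.803). Mef2c, like Tnfrsf1a, was lowest in experiment 1 in the Phase 1 sgControl group, at 299 CPM against 936 CPM in Phase 1 sgCbfb. Tnfrsf1b was most like Larp4b (0.876 and 0.81), Ndfip2 (0.868 and 0.769) and Cd48 (0.862 and 0.757). Cd48, a receptor of hematopoietic cells, averaged 92.2 CPM with sgCbfb and 24.1 CPM with sgControl in experiment 2.

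Tnfrsf9 and Ltb had a group mean over 10 CPM in only 1 of the 2 experiments and were compared over 12 libraries, a choice made after their values were seen. In experiment 1, among 8998 genes, Tnfrsf9 was most like Tmed3 (Pearson r 0.967, Spearman rho 0.804), Sidt1 (0.965 and 0.753) and Ifitm1 (0.957 and 0.699). Sidt1 averaged 11.9 CPM in Phase 1 sgControl and was at 0 in all 9 other libraries of that experiment, where Tnfrsf9 was low. In experiment 2, where its highest group mean of 9.06 CPM was under that level, it was compared as well, and among 8913 genes it was most like Spib (0.985 and 0.984), Colgalt1 (0.977 and 0.907) and Il18r1 (0.973 and 0.946). Spib, a transcription factor gene, averaged 26.6 CPM with sgCTCF, 8.87 CPM with sgControl, 6.83 CPM with sgMed12 and 0.382 CPM with sgCbfb, the order of Tnfrsf9. Ltb in experiment 2, among 8912 genes, was most like Pygm (0.948 and 0.937), Myo6 (0.943 and 0.839) and Hpse (0.933 and 0.867). Hpse averaged 26.5 CPM with sgCTCF and 0.754 CPM with sgMed12, the highest and the lowest group of Ltb too.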

How the data were processed

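RNA of 24 libraries was read by QuantSeq 3′ FWD. Trimming was done with fastp and mapping with STAR on mm10, and the authors deposited a CPM value for every gene and library. Versions, counting tool and strand setting were not given. The files name the values TPM, but low values of a library were whole multiples of 1 step, so they are CPM. Dividing by that step gave whole reads within 0.01 reads for at least 99.808% of values. A line without an identifier was left out of both tables, and 1 pooled column was not used. Each experiment was fitted on log2(CPM + 1) with limma 3.58.1 in R 4.3.3, all 4 groups in one fit, variances moderated with a trend, two-sided, with Benjamini-Hochberg adjustment, for genes that reached 1 CPM in 3 or more libraries. Calls needed an adjusted P under 0.05, means over 2-fold apart and 10 CPM exceeded by either mean. For the interaction they needed an adjusted P under 0.05 and 10 CPM exceeded by any group mean. Read ratios have exact Clopper-Pearson 95% intervals. Alternatives were pseudocounts of 0.1 and 5 CPM, no filter, a filter at a mean of 10 CPM, scaling by the median of ratios, a fit of the 2 compared groups alone, a replicate block, edgeR 4.0.16 on recovered reads, and each library left out. The code was tested on simulated data. Named were the 7 genes, the targets, every called further TNF receptor or ligand, up to 3 called genes with the largest differences per other list and comparison, and the 3 most similar genes per gene except Tnfrsf4. Similar genes of Tnfrsf4, whose highest group mean was 3.47 CPM, are not given. The 7 genes and all lists were chosen with earlier results of these data known. Of the marker lists, 1 B cell gene and 1 innate lymphoid gene are not reported here and were left out of the sums.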

Additional observations from a re-analysis of the deposited data

Results flagged for a closer look

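The interaction in the fit of experiment 1 tested whether the sgCbfb effect on a gene differed between Phase 1 cells and LPs. Among the 7 genes and the lists of pathway genes and markers, 12 genes met the thresholds of that test, beside 0.589% of all genes called above 0 (78 of 13239) and 0.597% called below 0 (79 of 13239). The lists, like the 7 genes, were chosen with earlier results of these data known. Nothing is therefore read from the count of 12 beside these shares. Each value below is the sgCbfb log2 difference in Phase 1 cells minus that in LPs, with its standard error.

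Tnfrsf9 had a value of -4.02 ± 0.78, which is a description because the gene was chosen on these libraries. It was 30.7-fold lower with sgCbfb in Phase 1 cells, where only the sgControl libraries were high, and overlapped between the guides in LPs, at 8 reads against 10. In the deeper LPs of experiment 2 it was lower with sgCbfb, at 1 read against 43 (log2 difference -2.14 ± 0.33). That value was -4.61 with a pseudocount of 0.1 CPM, -0.79 with 5 CPM and -4.95 by edgeR. The interaction takes its LP difference (-0.18 ± 0.55) from experiment 1 alone, and the difference between the experiments was not tested. The interaction value was -4.71 with a pseudocount of 0.1 CPM, -2.79 with 5 CPM and -4.66 by edgeR, and with 0.1 CPM it did not meet the thresholds.

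Of the genes tested, 4 of 12 Notch and early T genes also met the thresholds with values below 0, as did Kit and Cpa3, the 2 genes tested of the mast cell list, whose other markers were at 0 or under 2 CPM. They were -4.61 ± 0.76 for Cd3g (limma adjusted P = 0.0017), -4.38 ± 0.45 for Il2ra (adjusted P = 7.7e-06), -4.21 ± 0.84 for Cpa3 (adjusted P = 0.0098), -3.58 ± 0.69 for Tcf7 (adjusted P = 0.007), -2.28 ± 0.31 for Kit (adjusted P = 0.00021) and -1.85 ± 0.27 for Gata3 (adjusted P = 5e-04). The call of Cpa3 was lost by edgeR (adjusted P = 0.2) and with a pseudocount of 0.1 CPM (adjusted P = 0.38). Tcf7 averaged 4.52 ± 2.86 CPM in LP sgControl, 4.83 ± 2.77 CPM in LP sgCbfb, 148 ± 36.1 CPM in Phase 1 sgControl and 12.7 ± 4.47 CPM in Phase 1 sgCbfb libraries (SD, n = 3).

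Values above 0 met the thresholds for 3 of 9 lymphoid progenitor genes, 2 of 7 dendritic cell genes and 1 of 7 myeloid genes tested by limma, with Flt3 in 2 of these lists. They were 1.77 ± 0.29 for Adgre1 (adjusted P = 0.0018), 1.69 ± 0.41 for Flt3 (adjusted P = 0.041), 1.67 ± 0.31 for Irf8 (adjusted P = 0.0061), 1.51 ± 0.17 for Mef2c (adjusted P = 2.3e-05) and 1.31 ± 0.16 for Hoxa9 (adjusted P = 4.2e-05). The call of Flt3 was lost without 8 of the 12 libraries, each left out in turn, at adjusted P values up to 0.17, and with a pseudocount of 0.1 CPM or no filter on low values. Mef2c averaged 961 ± 65.6 CPM in LP sgControl, 1067 ± 77.3 CPM in LP sgCbfb, 299 ± 56.96 CPM in Phase 1 sgControl and 936 ± 67.6 CPM in Phase 1 sgCbfb libraries (SD, n = 3). Whether any of these genes and Tnfrsf9 differ for a shared reason was not tested.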

How the results depend on the processing

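Of the counts of called genes recomputed with another setting, 120 were within 1.5 times the reported count and 6 were not. With only the 2 groups compared in the fit, 119 genes were lower with sgCbfb in LPs of experiment 1, 111 were lower in Phase 1 cells than in LPs with sgCbfb, and 27 were higher and 30 lower with sgMed12. With no filter on low values, 24 genes were higher and 30 lower with sgMed12. The interaction could not be recomputed from 2 groups. The cause of these shifts was not tested.

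Leaving out each library in turn, the counts of genes called higher and lower ran from 88 to 182 and from 59 to 119 with sgCbfb in LPs of experiment 1, from 198 to 358 and from 168 to 225 with sgCbfb in Phase 1 cells, from 183 to 235 and from 148 to 361 between stages with sgControl, from 73 to 125 and from 34 to 98 between stages with sgCbfb, and from 52 to 115 and from 52 to 117 for the interaction. In experiment 2 they ran from 296 to 357 and from 204 to 228 with sgCbfb, from 200 to 265 and from 76 to 96 with sgCTCF, and from 22 to 243 and from 31 to 115 with sgMed12.

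For the 7 genes, 557 log2 differences under another setting moved by less than the replicate SD and 29 by more, and with a library left out these numbers were 923 and 1. For the other named genes in comparisons of 2 groups, 9 calls were lost and 286 kept under another setting, and 31 lost and 413 kept with a library left out. Interaction calls of marker genes are outside these numbers, and among them those of Cpa3 and Flt3 were lost in several settings. No called value changed sign. Libraries with the same replicate number correlated weakly after removal of group means (median r of 0.041 in experiment 1 and 0.0745 in experiment 2), and with the number as a block all 16 counts stayed within 1.5 times.

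At these depths, genes near 3 reads, such as Tnfrsf4 and Tnfrsf9 outside its high groups, cannot show small differences, and their log2 values depend on the pseudocount. Each group holds 3 libraries of cultured Cas9-LP cells, and the guides were pooled. Summed markers of several cell types differed with the guides and with Notch stimulation. Bulk 3′ tags give no protein level, no cell-by-cell measure and no view of the edited sites. The 7 genes were chosen on these libraries, so their differences cannot be tested in them.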
